A study of Ornithorhynchus anatinus with 3 samples.

Results

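Of the 20965 genes listed in all 3 platypus tables, 536 were detected in the ovary but not, or hardly, in cultured fibroblasts. A gene was counted as a member of this group if its ovary level was at least 5 FPKM (fragments per kilobase of transcript, scaled to the number of mapped fragments) with status OK and a lower interval limit above 0, and if its level was below 0.1 RPKM (the read-based form of the same unit) in both fibroblast libraries. Its locus also had to lie on a chromosome or on an unplaced Ultra or Contig scaffold, apart from Contig819, and to span from 300 to below 100000 bp. The X chromosomes were counted among the chromosomes. The ovary limits were met by 9000 of the 17441 genes with a value in each table that lay within the limits on position and length, so that the members made up 5.96% of the ovary-detected genes. The other 8464 ovary-detected genes, with at least 0.1 RPKM in one or both fibroblast libraries, are called comparison genes here.

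The ovary library came from an adult female labelled as ovulating (RNA integrity number 9.3). The male fibroblasts came from an adult male (8.9) and the female fibroblasts from another adult female, also labelled as ovulating (9.9), and all 3 animals were captured in New South Wales. With 1 library per group, no value has a replicate, and tissue, animal and, between ovary and fibroblasts, software and library handling cannot be told apart. The labels give 1 directional protocol for all libraries, while the study's methods call only the fibroblast libraries strand-specific. No treatment is named. The study used the ovary library to compare how far expression from X1, X5 and the autosomes was specific to the ovary. It reported a low extent that was much the same for all of them, and made a like comparison for testis. The fibroblasts, described as a cell line, served to compare the sexes.

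An ovary holds oocytes within follicles, granulosa and theca cells around them that respond to gonadotropins and make steroid hormones, and stroma with fibroblast-like cells and vessels. In egg-laying mammals the oocyte takes up a large amount of yolk. Oocytes and granulosa cells are known for gene products that few other cells make, such as the proteins of the egg coat. Cultured fibroblasts are connective tissue cells known for making extracellular matrix. None of these genes could be looked up here, because the tables pair no identifier with a gene name and the RefSeq gene table at hand lists no Ensembl identifiers. The labels of the libraries were therefore not checked against marker genes, and loci are named by position on the assembly of the Ensembl release used by the study, counted from 1. A whole ovary is a mixture of cells, in which fewer cells of a type and less RNA per cell cannot be told apart.

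The members were chosen by their levels in all 3 libraries, so that these levels are given as a description with no test. Their median was 13.99 FPKM, with quartiles of 7.83 and 30.2, and 332 of the 536 genes lay below 20 FPKM. The median of the comparison genes was 25.9 FPKM, with quartiles of 11.9 and 63.1. Members made up 10.2% of the 1817 ovary-detected genes from 5 to below 10 FPKM, 5.36% of the 2424 genes from 20 to below 50 and 2.45% of the 1349 genes from 50 to below 100. Above this, they made up 2.83% of the 1271 genes from 100 to below 1000 FPKM and 8.06% (5 genes) of the 62 genes at 1000 or more, with a 95% Wilson interval of 3.49% to 17.5%. In total, 41 members reached 100 FPKM. The members carried 4.30% of the summed FPKM of all ovary-detected genes, and the 10 with the highest levels held 46.2% of the members' sum.

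**Figure D1:**
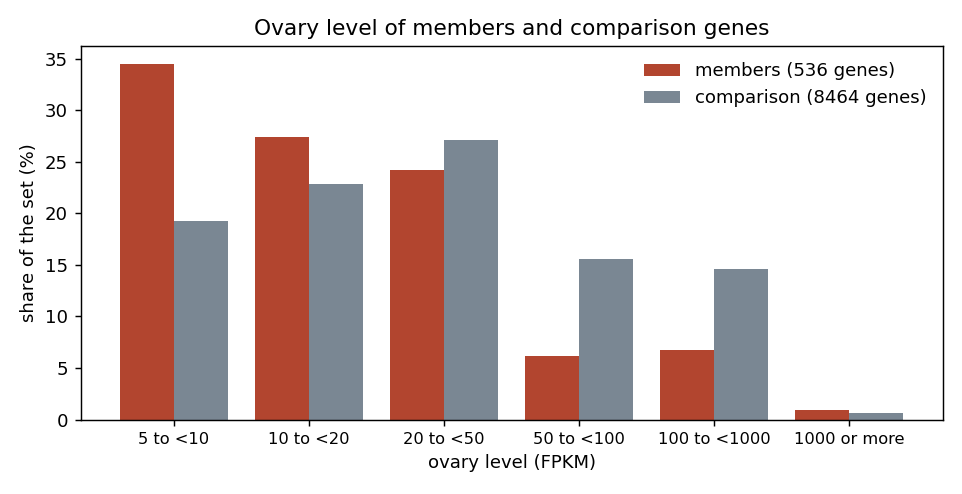
Share of the 536 members and of the 8464 comparison genes (y axis, percent of each set) in 6 classes of ovary level (x axis, FPKM). The class from 5 to below 10 FPKM holds 34.5% of the members and 19.3% of the comparison genes, and the one from 50 to below 100 FPKM holds 6.16% and 15.5%.

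The highest level was that of ENSOANG00000013630, on Contig263 from 529373 to 538190, with 3086 FPKM in the ovary, 0.0641 RPKM in male fibroblasts and 0 in female fibroblasts. It was followed by a locus on Ultra124 from 1819564 to 1826204, which had 2257 FPKM in the ovary, 0.0368 RPKM in the male and 0 in the female fibroblasts. The third was ENSOANG00000020546, on Contig232201 from 13 to 367, with 1599 FPKM in the ovary and 0 in both fibroblast libraries. Thus the 2 highest genes had a trace value in the male library alone, and the third was the highest of those listed at 0 in both. The level of the third rests on 248 fragments over a locus of 355 bp, fewer than for any other of the 10, and the locus of 318 bp on Contig50974 has 2890 fragments at a lower FPKM, so that the order among such short loci depends on the conversion to FPKM. A locus on Contig117634 from 94 to 1212 had 1498 FPKM in the ovary and 0 in both fibroblast libraries. The fifth, on X1 from 28940220 to 28969583, had 1353 FPKM in the ovary, 0.0372 RPKM in the male and 0.0610 RPKM in the female fibroblasts. It was the only one of the 10 with a value above 0 in both fibroblast libraries. A locus on Ultra75 from 53768 to 84148 had 825 FPKM in the ovary and the largest fragment number of all members, with 0.0705 RPKM in the male fibroblasts and 0 in the female fibroblasts. The remaining 4, all at 0 in both fibroblast libraries, were a locus of 318 bp on Contig50974 from 3452 to 3769 (798 FPKM), one on Ultra31 from 329237 to 332466 (722 FPKM), one on Ultra759 from 6011 to 10104 (497 FPKM) and one on chromosome 5 from 9417795 to 9437321 (339 FPKM). Of the 10, 3 were the only listed locus of their scaffold. No fold difference is given, since the ovary was quantified by other software than the fibroblasts and many fibroblast values are 0.

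The interval of the ovary table shows how well each level was measured. On either side it spanned a median of 15.3% of the member's FPKM, from 0.590% for the locus on Ultra75 to 89.4%, compared to a median of 10.2% for the comparison genes. If the limits stand for 2 square roots of the fragment number, the members rest on a median of 171 fragments and the comparison genes on 383. Under this reading, 357 members (66.6%) had at least 100 fragments, 58 had fewer than 30 and 10 had fewer than 10. Among the 349 members with fewer than 300 fragments, 59.3% of the numbers so derived were whole within 0.01, compared to 54.1% of all 8550 genes of the table with so few fragments and a lower limit above 0, and to 2% by chance. The intervals cover counting within this library and not the spread between animals. At the ovary threshold, the 2 members just inside had 5.003 FPKM (Contig39899, 2383 to 2952) and 5.010 FPKM (chromosome 4, 15022079 to 15029518). The 2 genes just outside had 4.989 and 4.981 FPKM, and both were at 0 in both fibroblast libraries. From 4 to below 5 FPKM lay 72 genes that met all other limits, compared to 54 members from 5 to below 6 FPKM, so that the group has no gap at its lower end.

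Fibroblast values were 0 in both libraries for 344 of the 536 members (64.2%, Wilson interval 60.0% to 68.1%). This corresponds to 3.82% of all ovary-detected genes. The male value was 0 for 417 members and the female value for 395. A value above 0 was listed for 51 members in the male library only, for 73 in the female library only and for 68 in both. Where above 0, the median was 0.0439 RPKM in male and 0.0427 RPKM in female fibroblasts, with lowest values of 0.00518 and 0.00567 RPKM. The tables give no read numbers. However, ratios of the male to the female value were compared with ratios of whole numbers up to 6, multiplied by 1.217. They fell on these within 0.1% for 33 of the 68 members with a value in both libraries (48.5%). The factor was taken from 220 other genes of low level, of which 45.9% did so, and with the factor moved by 1% the number of members was 0. If such ratios stand for whole read numbers, 1 read is worth 1.217 times as much RPKM in male as in female fibroblasts. The share among members was close to that among the other low genes. How low a level a value of 0 excludes is not known for a given gene.

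The ceiling of 0.1 RPKM also has no gap. The 2 members closest to it had 0.0972 RPKM in male and 0.0600 RPKM in female fibroblasts (Contig8216, 7655 to 13348), and 0.0959 and 0.0788 RPKM (Contig22705, 8666 to 11237). The 2 genes just beyond it had 0.1002 and 0.1013 RPKM in the female library and 0 in the male library. The higher of the 2 fibroblast values lay from 0.05 to below 0.1 RPKM for 87 members and from 0.1 to below 0.15 RPKM for 73 comparison genes. With the male library alone 649 ovary-detected genes (7.21%) were below the ceiling and with the female library alone 636 (7.07%). Of those below it in the male library, 113 were not below it in the female library. Their median there was 0.206 RPKM, and 14 of them reached 1 RPKM, with a highest value of 131 RPKM. Conversely, 100 genes were below the ceiling in the female library only, with a median of 0.205 RPKM in the male library, and 9 of them reached 1 RPKM, up to 21.5 RPKM. The sex of the fibroblasts is confounded with the animal.

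Member loci had a median length of 7975 bp (exact binomial interval of the median, 6747 to 9957), compared to 11462 bp (11069 to 11753) for the comparison genes. They ranged from 304 bp, on Contig254422 from 184 to 487 with 5.51 FPKM on 9 fragments, to 97901 bp, on Contig59 from 2625594 to 2723494 with 12.0 FPKM, 0 in male and 0.00567 RPKM in female fibroblasts. The median over all 17441 genes within the limits was 7705 bp. Members made up 14.1% of ovary-detected genes with loci under 1 kb (66 of 467, 11.3% to 17.6%), 7.92% from 1 to below 3 kb, 5.56% from 3 to below 10 kb, 4.57% from 10 to below 30 kb and 5.74% from 30 kb on (103 of 1795, 4.75% to 6.91%). The share was thus highest among the shortest loci, and it did not fall further at the long end. A locus includes introns, and these intervals treat genes as independent.

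Within a kind of sequence, a shorter median was found on Contig scaffolds, where the 285 members had 4795 bp and the comparison genes 7083 bp. Contig scaffolds also held 53.2% of the members and 47.1% of the comparison genes, so that this mix enters the medians over all genes. On chromosomes the medians were 21036 bp for 91 members and 21043 bp for the comparison genes, and on Ultra scaffolds they were 18561 bp for 160 members and 17975 bp. Among loci under 1 kb, members made up 15.4% on Contig scaffolds (54 of 350), 16.7% on chromosomes (6 of 36) and 7.41% on Ultra scaffolds (6 of 81), with intervals that overlap. From 1 to below 3 kb, they made up 8.14% on Contig scaffolds, 12.8% on chromosomes (10 of 78) and 5.18% on Ultra scaffolds, again with overlapping intervals.

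**Figure D2:**
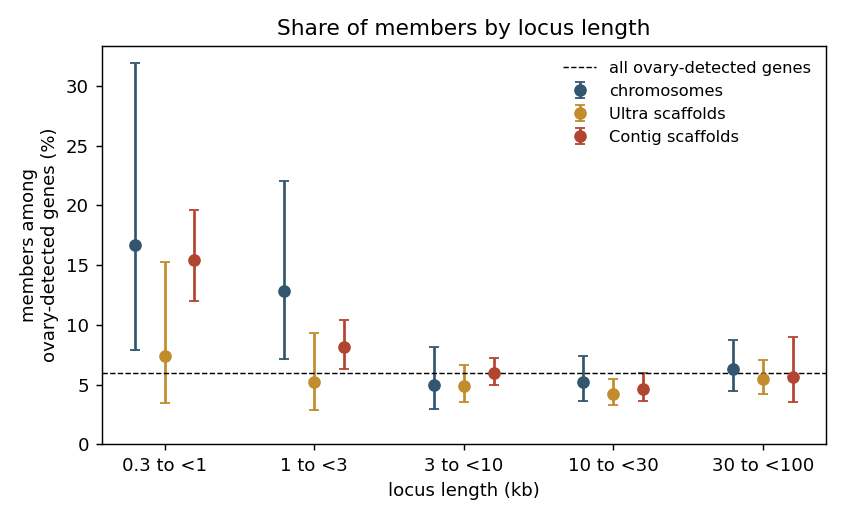
Share of members among ovary-detected genes (y axis, percent, with 95% Wilson intervals as bars) in 5 classes of locus length (x axis, kb), separately for chromosomes, Ultra and Contig scaffolds. The dashed line is the share over all ovary-detected genes, 5.96%, and the points from 3 kb on lie between 4.24% and 6.30%.

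Among members, length and fibroblast value are tied by the rule. RPKM divides reads by exon model length, so that a single read gives a higher value on a shorter model. A short gene with a read thus stays below the ceiling of 0.1 RPKM less easily, and the following contrast is not a separate result. The 344 members at 0 in both libraries had a median locus length of 5313 bp (4086 to 6417), and the 192 members with a value above 0 had one of 15945 bp (13735 to 20249). Of the 66 members under 1 kb, 58 were at 0 in both libraries. The part of read number in the choice of the members was not tested.

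By position, 77 members lay on numbered autosomes, 14 on X chromosomes, 160 on Ultra scaffolds and 285 on Contig scaffolds. A chromosome was thus assigned to 17.0% of the members and to 16.2% of the comparison genes. Members made up 6.20% of the ovary-detected genes on autosomes (Wilson interval 4.99% to 7.69%), 6.25% on X chromosomes (3.76% to 10.2%), 4.90% on Ultra scaffolds (4.21% to 5.69%) and 6.68% on Contig scaffolds (5.97% to 7.47%). A difference between autosomes and X chromosomes was not detectable with these numbers. Of the 14 members on X chromosomes, 11 lay on X1. The study describes most of the assembled X1 as pseudoautosomal, that is, pairing with a Y chromosome, so that the pooled share is not one of sex-linked genes. Of the 19 chromosomes in the table, 12 held a member. The 7 others, 5 autosomes and 2 X chromosomes, together have only 105 ovary-detected genes. They were grouped because they held no member, so that no limit is drawn from their sum. Taken singly, their upper Wilson limits ranged from 14.3% (chromosome 18) to 39.0% (X2).

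**Figure D3:**
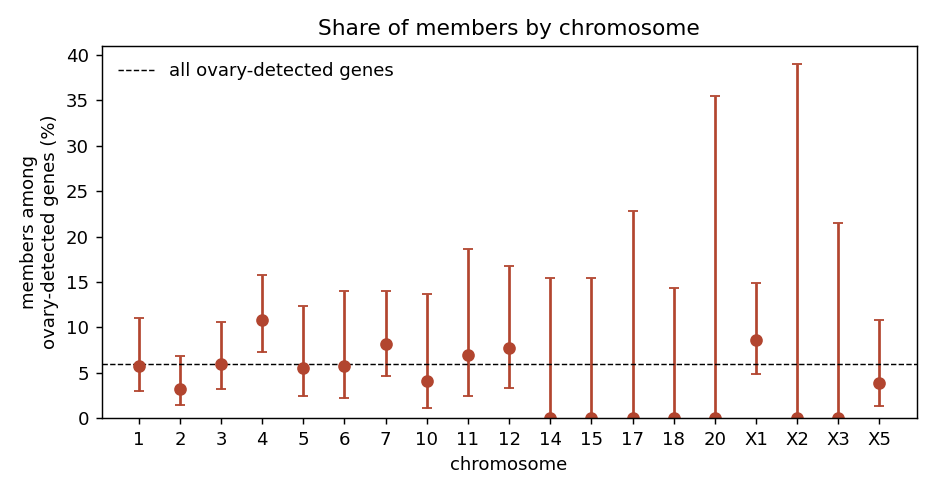
Share of members among the ovary-detected genes of each chromosome (y axis, percent, with 95% Wilson intervals as bars) for the 19 chromosomes in the table (x axis). The dashed line is the share over all ovary-detected genes, 5.96%, and chromosome 4 is the only one whose interval, 7.34% to 15.8%, does not include it.

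On X1, 11 of 127 ovary-detected genes were members (8.66%, 4.91% to 14.8%), and on X5 3 of 77 (3.90%, 1.33% to 10.8%), with intervals that overlap. The X1 members had ovary levels from 6.45 to 1353 FPKM with a median of 19.6 FPKM, and 6 of the 11 were at 0 in both fibroblast libraries. After the locus with 1353 FPKM, the next was at 15155703 to 15172326 with 45.0 FPKM, followed by one at 43159393 to 43213547 with 40.3 FPKM, both at 0 in both fibroblast libraries. The other 10 X1 members were thus at 45.0 FPKM or below. On X5, a pair of neighbouring members lay at 22705481 to 22706287 (14.2 FPKM) and 22744944 to 22789714 (18.2 FPKM), both at 0 in the fibroblasts. The remaining X5 member, at 24184078 to 24243213, had 5.66 FPKM in the ovary, 0 in male and 0.0330 RPKM in female fibroblasts.

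Chromosome 4 had the highest share, with 23 members among 212 ovary-detected genes (10.8%). Part of it came from 1 stretch, between 21938301 and 22181759, in which all 24 listed loci were at 0 in both fibroblast libraries. The stretch ends on each side where the next listed locus reached 0.1 RPKM in a fibroblast library. Low fibroblast values throughout thus follow from how it was cut, and so does the fact that its ovary-detected genes were all members. It held 7 members, with ovary levels of 12.5, 38.2, 5.49, 6.38, 30.2, 25.4 and 6.56 FPKM in the order of their positions. The first member starts at 21967553, and the last ends at 22181759. Of the other 17 loci, 10 were at 0 FPKM in the ovary as well, and the highest was at 4.66 FPKM. Within the stretch, the ovary levels of the members thus varied from 5.49 to 38.2 FPKM. Their loci were short, with 6 of the 7 under 2 kb and the seventh spanning 27185 bp, and they rest on 21.0 to 181 fragments. Without the loci of this stretch, 16 of 205 ovary-detected genes on chromosome 4 were members (7.80%, 4.86% to 12.3%). The stretch was singled out after its values had been seen. Whether its loci are copies of one another was not examined, since their sequences were not used here, and reads shared among copies could not be told apart.

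**Figure D4:**
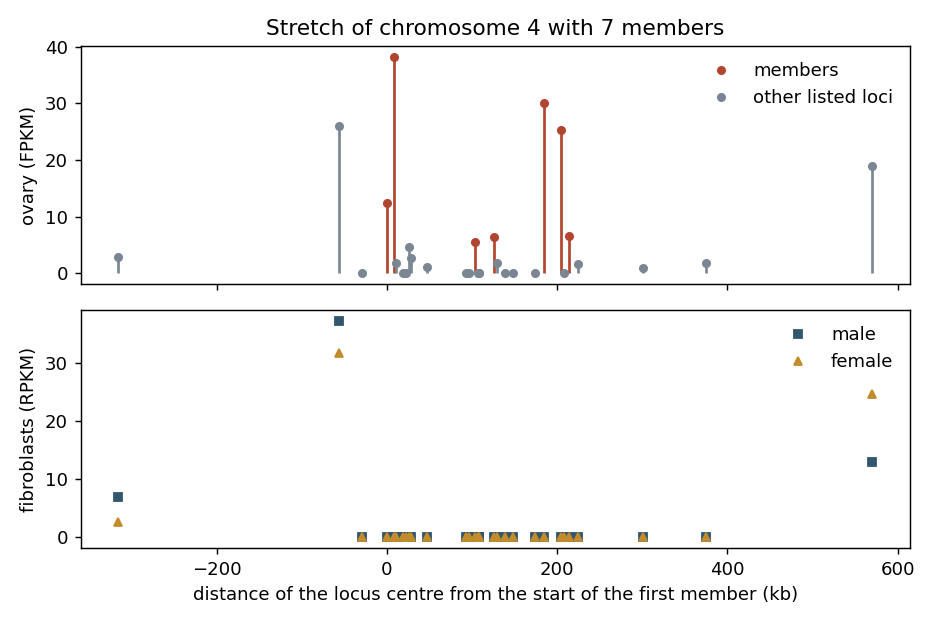
Ovary level in FPKM (top, y axis) and fibroblast levels in RPKM (bottom, y axis) of the listed loci around the stretch on chromosome 4, by the distance in kb of the locus centre from the start of the first member (x axis). The 7 members reach up to 38.2 FPKM among loci at 0 in both fibroblast libraries, while the locus at -56.1 kb has 25.9 FPKM in the ovary and 37.2 and 31.7 RPKM in male and female fibroblasts.

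Loci next to members were then examined. Neighbours were the previous and the next listed locus on the same scaffold, whether or not it was expressed. Of the 294 ovary-detected loci next to a member, 70 (23.8%) were members themselves, compared to 224 of 5802 (3.86%) next to a comparison gene and to 5.96% of all ovary-detected genes. The 5.96% includes 2934 genes alone on their scaffold, which have no neighbour and of which 7.06% were members. Shares next to members were also higher on chromosomes (26.2% against 4.08%), Ultra scaffolds (19.0% against 3.90%) and Contig scaffolds (34.6% against 3.38%). The chromosome share rests on 22 of 84 loci. Several of the pairs behind it lay on chromosome 4, some of them in the stretch described above, and others on chromosomes 3, 6, 7, X1 and X5. The 224 are pairs of a member and a comparison gene, which also make up the rest of the 294, counted from the other side. On each kind of sequence, the lower share next to comparison genes is thus tied to the higher one next to members and is not a separate result. Each pair of neighbouring members counts from both sides, so that the 70 stand for 35 pairs, and the intervals drawn for these shares treat loci as independent, which those on 1 scaffold are not. No test was made. Neighbouring loci with a fibroblast value were also counted whether or not they were expressed in the ovary. Of the 561 next to members, 247 (44.0%) were below 0.1 RPKM in both fibroblast libraries, compared to 20.3% of the 9888 next to comparison genes. The 247 include the 70 members counted above, so that this is only in part a separate result. Of all genes within the limits 32.3% were below it, but these include genes alone on their scaffold, which have no neighbour.

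**Figure D5:**
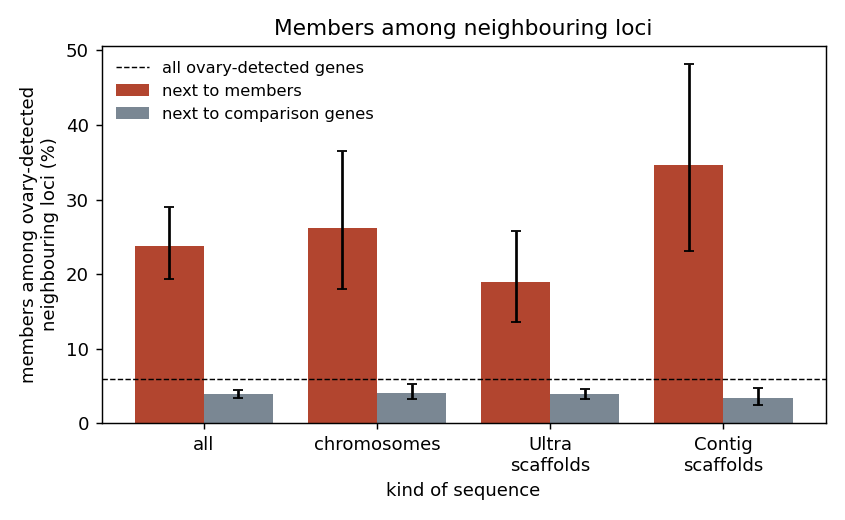
Share of members among the ovary-detected loci next to members and next to comparison genes (y axis, percent, bars from 0 with 95% Wilson intervals), over all loci and by kind of sequence (x axis). The dashed line is the share over all ovary-detected genes, 5.96%, including genes alone on their scaffold, which have no neighbour. The bars next to members, from 19.0% to 34.6%, lie above it and those next to comparison genes lie below it. Pairs of a member and a comparison gene enter the bars of both sets, so that the bars next to comparison genes are not a separate result.

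In all, 67 of the 536 members (12.5%, Wilson interval 9.96% to 15.6%) had another member as a direct neighbour. Only 329 members had any other listed locus on their scaffold, and the rest could have no neighbour. They formed 29 runs of 2 and 3 runs of 3 consecutive members, and in 17 of these 32 runs all members were at 0 in both fibroblast libraries. The gap between neighbouring members had a median of 15633 bp, from 365 to 339202 bp, and the gap between neighbouring comparison genes one of 16175 bp. Levels within a pair of neighbouring members differed by a median of 0.99 on the log2 scale of FPKM, and those within a pair of neighbouring comparison genes by 1.45. The median gaps were thus of like size, and the members as a whole also span a narrower range of levels, as their quartiles show. A gene that the annotation splits into 2 loci would count as a pair, which was not tested.

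The run of 3 on Ultra31 had the highest level. Its members, at 259009 to 261754, at 281159 to 285705 and at 329237 to 332466, had 43.2, 42.2 and 722 FPKM in the ovary, and all were at 0 in both fibroblast libraries. A further member at 422820 to 441571 had 35.5 FPKM and was at 0 in the fibroblasts as well, so that 4 of the 9 ovary-detected genes of this scaffold were members. The run on chromosome 4, outside the stretch described, began at 14651627 to 14675205 with 212 FPKM in the ovary, 0.0545 RPKM in male and 0.0597 RPKM in female fibroblasts. It went on at 15003592 to 15009119 with 8.05 FPKM, 0.0108 RPKM in male and 0 in female fibroblasts, and at 15022079 to 15029518 with 5.01 FPKM and 0 in both. Within this run the first gene stood far above the other two in the ovary. The run on Ultra103 was made up of a locus at 745925 to 818563 (7.68 FPKM), one at 828439 to 838516 (9.97 FPKM) and one at 860189 to 883412 (17.9 FPKM). Each of them had a value above 0 in at least 1 fibroblast library, the highest being 0.0625 RPKM in the female library for the first.

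The members were spread over 370 unplaced scaffolds, of which 327 held only 1 member. Ultra341 held the most, with 7 members among 84 ovary-detected genes. Besides Ultra31, Ultra475 had 4 members among 9 ovary-detected genes and Ultra520 had 5 among 17. On Ultra520, the pair at 770111 to 773698 and 781906 to 786907 had 57.0 and 203 FPKM in the ovary, with 0 in both fibroblast libraries for the former and 0.0896 RPKM in male and 0 in female fibroblasts for the latter. All 4 members on Ultra475 were at 0 in the fibroblasts and had between 6.54 and 14.6 FPKM in the ovary. Scaffolds with a single listed locus held 207 members, 7.06% of their 2934 ovary-detected genes (6.18% to 8.04%), and sequences with 20 or more listed loci held 192, 5.44% of 3532 (4.74% to 6.23%). Another listed locus overlapped 19 members, and in 6 of these cases the overlapping locus reached 0.1 RPKM in a fibroblast library. The share of comparison genes with such an overlap was not counted, so that the 19 cannot be called few or many. Whether the ovary reads were counted by strand is not given in the sources used here.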

How the data were processed

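The authors deposited 1 table per library. For the ovary, the authors computed FPKM values, normalized for transcript length and mapped fragments, with interval limits, and deposited them with a status and a locus per gene under the column names Cufflinks uses. For the fibroblasts, the authors computed RPKM values, normalized for exon model length and mapped reads, on gene models refined from the same Ensembl release. Bowtie, TopHat 1.0.13 and Cufflinks 1.0.3 are named in the submitters' processing notes without a role. Further options are not given in the sources used here. Starts in the ovary table count from 0 and were raised by 1. Of repeated identifiers the first row was kept, leaving 22369 genes. A code of -1 in place of a fibroblast value excluded 7 genes. Of 1404 ovary genes without a fibroblast value, 5 lay within the limits on position and length and none was ovary-detected.

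The members and all lists were chosen with earlier results of these data known. With 1 library per group there are no tests. Shares have 95% Wilson intervals and medians exact binomial intervals, which cover counting error over genes only. The loci described were the 10 members with the highest FPKM, runs of at least 3, the shortest and longest locus, those at the thresholds and members on X1 and X5. Ultra475, Ultra520 and the stretch on chromosome 4 were added after their values were seen. The alternatives changed the ovary minimum, the fibroblast ceiling, the libraries used, the interval and status filters together, both length limits together, the place of the X chromosomes and the definition of a neighbour. Contig819 and the kinds of scaffold were kept as in the rule. The steps were tested on simulated data. Intervals were computed with scipy 1.17.1 and numpy 2.4.6, tables with pandas 2.3.3 and plots with matplotlib 3.10.9, under Python 3.11.15.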

Additional observations from a re-analysis of the deposited data

How the results depend on the processing

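No paired analysis was possible because there is only 1 library in a group, so that nothing was tested. Of 66 alternative values, 47 stayed within the interval of the reported value (for the number of members, within 1.5 times) and 19 moved. These counts do not measure robustness. A changed ovary minimum or fibroblast ceiling changes the number of members by construction. Other alternatives changed few genes, with 541 members without the interval and status filters and 522 without the X chromosomes. A minimum of 1 FPKM gave 1156 members (9.92% of ovary-detected genes, median 4.41 FPKM), and one of 10 FPKM gave 351 (4.89%, median 23.1 FPKM). Requiring 0 in both fibroblast libraries gave 344 members (3.82%), with a median locus of 5312.5 bp, 13.7% on a chromosome and, by construction, 100% at 0. A ceiling of 0.5 RPKM gave 825 members (9.17%, 41.7% at 0 in both). The male library alone gave 7.21% (53.0% at 0 in both) and the female library alone 7.07% (54.1%). With the next ovary-detected gene as neighbour, 17.2% of members were next to another. Among ovary-detected loci next to members, the share of members lay between 22.7% and 28.6% under all 9 alternative rules, and the share among all ovary-detected genes between 3.82% and 9.92%. The latter share includes genes alone on their scaffold. The planned share of X1 and X5 among members on chromosomes (14 of 91, 15.4%) is another quantity and is not counted among these. Read numbers per gene were not used here, which limits what a fibroblast value of 0 means for short genes.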
